A study of Mus musculus with 7 samples.

Results

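The 8 transcription factors described here, Cebpb, Cebpd, Runx1, Fosl2, Bhlhe40, Yap1, Snai2 and Twist1, are known from human glioblastoma as regulators of the mesenchymal tumour class. They were read in sorted glioma cells of mice with different numbers of Ptprd alleles. A factor was found by its symbol among the probe sets that named a single gene. This gave 15 probe sets among 22626, for 8 of 12393 named genes. Each gene was represented by its brightest probe set, the one with the highest mean over all arrays, and its other probe sets are given beside it. Of the 8 genes, 5 (Cebpb, Cebpd, Runx1, Bhlhe40 and Yap1) were bright enough to be tested, meaning that their brightest probe set exceeded the 30th percentile of 2 or more arrays. Fosl2, Snai2 and Twist1 lay below this filter and are described by their values.

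The study compared 3 genotypes, namely Ptprd-/-p16-/- (null, 3 arrays), Ptprd+/-p16-/- (heterozygous, 2 arrays) and Ptprd+/+p16-/- (wild type, 2 arrays). Ptprd encodes a receptor-type protein tyrosine phosphatase. All mice, wild type included, lacked p16, a cell cycle inhibitor, had a background mixed from C57/BL6 and FVB/N, and carried tv-A, the receptor for avian RCAS vectors, under the Nestin promoter. RCAS carrying PDGFB and GFP was injected into the brain on days 1 to 3 after birth, so tumours arise from neonatal cells that express Nestin, and brains were taken at symptoms or at 12 weeks. Living GFP+ cells were sorted from dissected tumours, and RNA was hybridised to Affymetrix expression arrays. Replicates are labelled as biological, with no word on whether a sample is 1 mouse, so p-values measure the spread between these samples.

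The mesenchymal class of glioma is one of several expression classes. It is marked by genes of wound repair, matrix and the acute-phase response, and is set against a proneural class that resembles oligodendrocyte progenitors. C/EBPβ and C/EBPδ are leucine zipper factors that switch on acute-phase genes after cytokine signals, often together with STAT3. RUNX1 is a DNA-binding partner of CBFβ known from blood formation, FOSL2 a Fos-type subunit of AP-1, and BHLHE40 a repressor that answers hypoxia and takes part in the circadian clock. YAP1 is the coactivator restrained by the Hippo kinases, and SNAI2 and TWIST1 are repressors known from epithelial-mesenchymal transition. Macrophages also use C/EBP factors, RUNX1 and BHLHE40, so their RNA in a sorted sample can come from tumour cells or from macrophages.

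The arrays had medians of 6.63 to 6.72 on the log2 scale, and no pair held identical values. Across probe sets, the heterozygous arrays correlated with the other arrays at 0.976 to 0.987, against 0.990 to 0.995 among null and wild-type arrays. Ptprd was at 9.61, 8.95 and 9.93 in null, 9.42 and 9.57 in heterozygous and 10.86 and 10.89 in wild-type samples (log2), and null and heterozygous differed by 0.00 ± 0.26 (SE). The sources used here do not say whether its probe sets lie in the deleted part, so these levels do not check the null label. Null replicate 1 and heterozygous replicate 1 carried both Xist, an RNA of female cells (12.73 and 11.16), and the Y-linked gene Eif2s3y (8.69 and 9.28). Each other array carried a high level of only one of these 2 transcripts. All 8 progenitor markers on the array, Olig2 and Pdgfra among them, lay above the 30th percentile on all 7 arrays. Their summed level, in linear units, was 44123 to 46253 in null, 30808 to 37860 in heterozygous and 49128 to 49736 in wild-type samples. Of 18 microglia and macrophage markers, 15 and 17 lay above the 30th percentile on the heterozygous arrays, against 11 to 14 on the others. Their summed level was 1039 to 1579 in null, 2560 to 3253 in heterozygous and 921 to 1225 in wild-type samples.

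Among the 5 tested factors, Cebpd alone passed the threshold. It rose 3.57-fold in heterozygous against wild-type cells and was 3.65-fold lower in null than in heterozygous cells. Runx1 was higher in heterozygous cells in a dim probe set, and its brightest probe set differed little. Cebpb was intermediate, and Bhlhe40 and Yap1 stayed within intervals that include 0 in every comparison. Between null and wild-type cells none of the 5 tested factors passed the threshold of an adjusted p of 0.05.

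**Figure D1:**
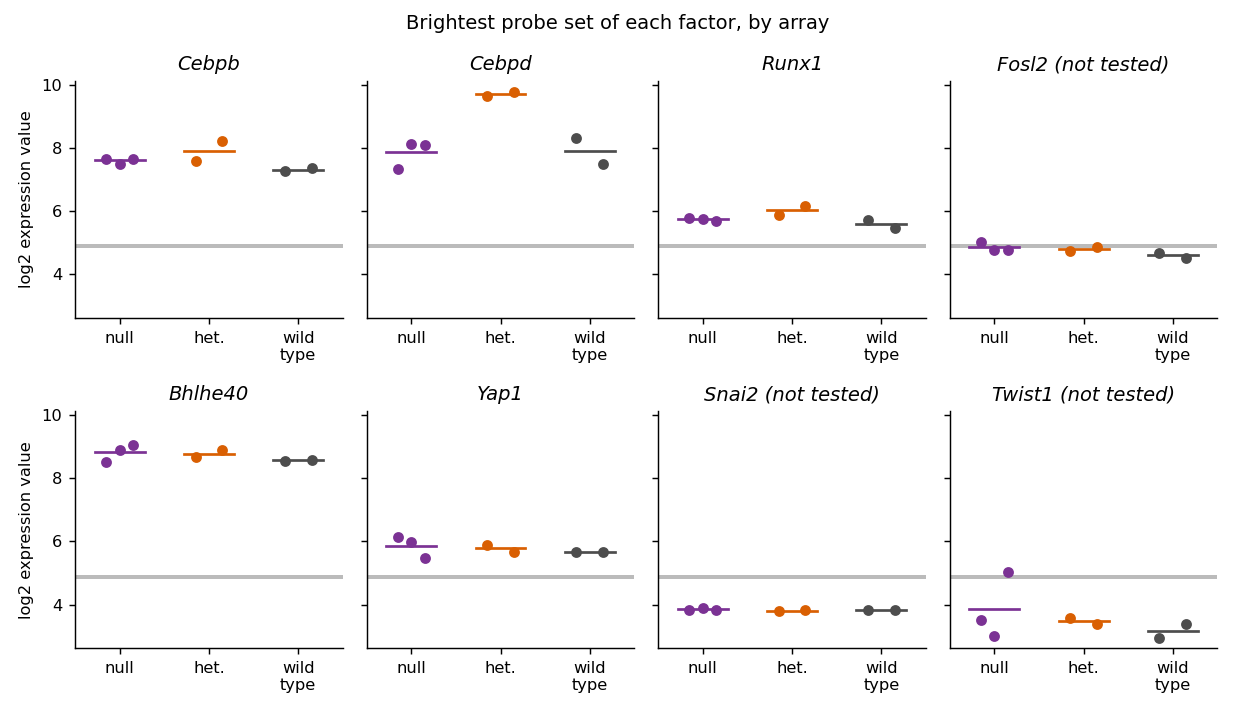
The log2 expression value of the brightest probe set of each factor (vertical axis) is plotted for null, heterozygous (het.) and wild-type cells, with a point per array and a line at the group mean; the grey band spans the 30th percentiles of the arrays (4.82 to 4.95). Cebpd stands at 9.67 and 9.79 on the heterozygous arrays, above all other arrays, while Snai2 and all but 1 of the Twist1 values lie below the band.

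Cebpd lies on chromosome 16 (15887286 to 15889545, GRCm38.p6). Its brightest probe set was at 7.35, 8.15 and 8.10 in null cells (7.86 ± 0.45, SD), at 9.67 and 9.79 in heterozygous cells (9.73 ± 0.08) and at 8.31 and 7.49 in wild-type cells (7.90 ± 0.58). Both heterozygous arrays lay above all other arrays, and null and wild-type values overlapped. The log2 difference was 1.83 ± 0.34 (SE, 95% interval 1.04 to 2.63) for heterozygous against wild type, with an adjusted p of 0.0232. For null against heterozygous it was -1.87 ± 0.31 (-2.60 to -1.14, adjusted p = 0.0199), and for null against wild type -0.03 (-0.76 to 0.69). The order of the levels was thus heterozygous above wild type and null, which did not differ beyond their spread. The second probe set was dim and showed little of this. It read 5.11, 5.13 and 5.14 in null, 5.14 and 5.68 in heterozygous, and 5.14 and 4.97 in wild-type cells, with a difference of 0.35 for heterozygous against wild type (adjusted p = 0.287 when every probe set was fitted). The calls of the brightest probe set ended in both comparisons without moderation of the variances and with replicate number as a block. For heterozygous against wild type the call also ended when only these groups were fitted. The call for heterozygous against wild type ended without wild type replicate 2 (difference 1.42, adjusted p = 0.132), without heterozygous replicate 1 (0.116) or 2 (0.0686), and with the 3' minus 5' signal of control probe sets as a covariate (0.0553). For null against heterozygous it ended without heterozygous replicate 1 (0.129) or 2 (0.0609) and without null replicate 3 (0.0504). It ended in both comparisons without the pair of arrays with Xist and Eif2s3y (1.89 and -1.67, adjusted p = 0.131 and 0.201).

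Cebpb, the partner of Cebpd in acute-phase transcription, lies on chromosome 2 (167688915 to 167690432). It was at 7.67, 7.51 and 7.67 in null cells (7.62 ± 0.09, SD), at 7.58 and 8.22 in heterozygous cells (7.90 ± 0.45) and at 7.28 and 7.36 in wild-type cells (7.32 ± 0.05). All 5 arrays of null and heterozygous cells lay above both wild-type arrays. The largest value was heterozygous replicate 2, while heterozygous replicate 1 lay among the null values. The difference for heterozygous against wild type was 0.58 ± 0.20 (SE, 0.10 to 1.05). Its unadjusted p of 0.0238 did not pass adjustment (0.111), except without heterozygous replicate 1 (difference 0.90, adjusted p = 0.045) and with the mean of both its probe sets (0.57, adjusted p = 0.0440). Without heterozygous replicate 2 the difference was 0.26 (adjusted p = 0.258). For null against wild type the difference was 0.30 (-0.14 to 0.73, adjusted p = 0.894). The dimmer probe set of Cebpb read 5.06, 5.37 and 5.22 in null, 5.79 and 5.88 in heterozygous, and 5.37 and 5.16 in wild-type cells. Here both heterozygous arrays were above all others, and null was not above wild type. In the fit of every probe set it was 0.62 ± 0.12 (SE) lower in null than in heterozygous cells on the log2 scale (adjusted p = 0.0462), and 0.57 ± 0.13 higher in heterozygous than in wild-type cells (adjusted p = 0.0603). The first of these calls ended under most settings that left out an array, with adjusted p up to 0.208 (without heterozygous replicate 1).

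Runx1 lies on chromosome 16 (92601466 to 92826074) and has a pair of start sites in the RefSeq table. The 250 bases before each are shown because its 5 probe sets did not move alike, and because transcripts from the 2 starts differ in their first exons. Which part of which transcript a probe set covers is not given in the sources used here. Both stretches are on the minus strand of GRCm38.p6, at chr16:92826075-92826324 for the upstream start and chr16:92697330-92697579 for the inner one. Capitals mark matches to the motifs searched, which are a CAGGTG E-box, a CACGTG E-box and, in the inner stretch, GGAATG, the reverse complement of the TEAD motif CATTCC.
Runx1 upstream start: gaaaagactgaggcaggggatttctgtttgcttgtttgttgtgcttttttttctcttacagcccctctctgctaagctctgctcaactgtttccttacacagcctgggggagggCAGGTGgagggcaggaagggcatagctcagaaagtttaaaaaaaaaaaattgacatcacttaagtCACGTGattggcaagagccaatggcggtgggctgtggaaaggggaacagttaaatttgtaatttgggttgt
Runx1 inner start: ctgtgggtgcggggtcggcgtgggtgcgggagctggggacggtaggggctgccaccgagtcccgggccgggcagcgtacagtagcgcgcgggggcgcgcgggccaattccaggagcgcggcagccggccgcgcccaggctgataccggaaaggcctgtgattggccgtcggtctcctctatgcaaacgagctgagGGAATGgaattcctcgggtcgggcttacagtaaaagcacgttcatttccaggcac

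The brightest Runx1 probe set, 1427650_a_at, was at 5.78, 5.76 and 5.68 in null cells (5.74 ± 0.06, SD), at 5.89 and 6.16 in heterozygous cells (6.03 ± 0.19) and at 5.72 and 5.47 in wild-type cells (5.60 ± 0.18). The heterozygous arrays were the highest, by a small margin. The difference for heterozygous against wild type was 0.43 ± 0.14 (SE, 0.10 to 0.76), with an adjusted p of 0.0909. Null and heterozygous cells differed by -0.29 (-0.59 to 0.01, adjusted p = 0.185).

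A dimmer Runx1 probe set, 1422864_at, separated the groups far more. It read 3.48, 3.84 and 3.62 in null cells (3.64 ± 0.18, SD), 5.25 and 5.20 in heterozygous cells (5.23 ± 0.04) and 3.39 and 3.51 in wild-type cells (3.45 ± 0.08). Both heterozygous arrays lay above the 30th percentile, and all other arrays lay below it, so the size of the fold rests on dim wild-type and null values. In the fit of every probe set it was 1.77 ± 0.13 higher in heterozygous than in wild-type cells (SE, 95% interval 1.45 to 2.09, adjusted p = 0.00347), and 1.58 ± 0.12 lower in null than in heterozygous cells on the log2 scale (adjusted p = 0.00407). With single arrays left out, the difference from wild type was 1.71 to 1.83, and the call ended only without wild type replicate 2 (adjusted p = 0.0521). Without the pair of arrays with Xist and Eif2s3y it was 1.75 (adjusted p = 0.121), and the call against null ended too (0.155).

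The other Runx1 probe sets were closer together. Probe set 1422865_at, below the 30th percentile on every array, read 3.53, 3.53 and 3.78 in null, 3.97 and 3.81 in heterozygous, and 3.29 and 3.14 in wild-type cells. Its heterozygous values were the highest and its wild-type values the lowest. No difference is given at such dim levels, although it is counted among the probe sets that passed (adjusted p = 0.0387). That call held without null replicate 3 (adjusted p = 0.0436) and ended without null replicate 1 (0.0609) or 2 (0.0576). It also ended when any single wild-type or heterozygous array was left out. Probe sets 1452531_at and 1452530_a_at differed by 0.12 and 0.23 (adjusted p = 0.674 and 0.244). Of the 5 probe sets, 1452531_at was also the only one higher in null than in heterozygous cells (5.36, 5.51 and 5.20 against 5.20 and 5.16). When each gene was given the mean of its probe sets, Runx1 passed in heterozygous against wild type (0.65, adjusted p = 0.0114) and in null against heterozygous (-0.43, adjusted p = 0.0324).

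**Figure D2:**
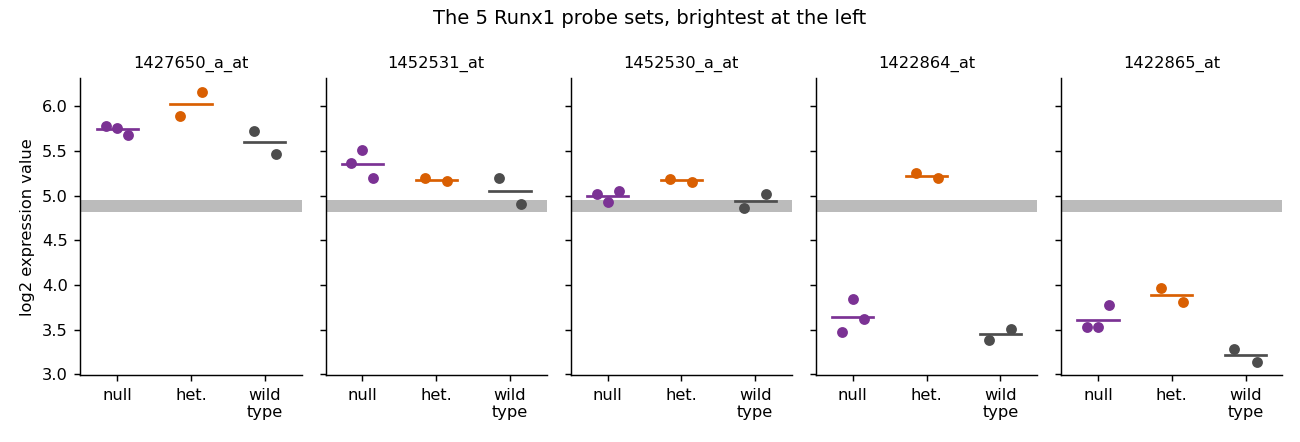
The log2 value of each Runx1 probe set (vertical axis) is plotted by array for null, heterozygous (het.) and wild-type cells, with lines at the group means and a grey band over the 30th percentiles of the arrays. In 1422864_at the heterozygous arrays stand at 5.25 and 5.20 and the other 5 arrays between 3.39 and 3.84, while the groups lie close together in 1452531_at and 1452530_a_at.

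Bhlhe40, on chromosome 6 (108660629 to 108666925), varied little between the groups. It was at 8.52, 8.91 and 9.05 in null cells, at 8.67 and 8.89 in heterozygous cells and at 8.55 and 8.59 in wild-type cells. The heterozygous arrays were above the wild-type arrays by a small margin, and the null values lay on both sides of the wild-type ones. The differences were 0.21 (-0.23 to 0.64) for heterozygous against wild type, 0.26 (-0.14 to 0.65) for null against wild type and 0.05 (-0.35 to 0.45) for null against heterozygous. Adjusted p-values were 0.492, 0.894 and 0.886.

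Yap1, on chromosome 9 (7931999 to 8004638), was at 6.13, 5.97 and 5.49 in null cells, at 5.89 and 5.67 in heterozygous cells and at 5.66 on both wild-type arrays. The null values lay both above and below those of the other groups. The differences were 0.12 (-0.37 to 0.61) for heterozygous against wild type, 0.20 (-0.25 to 0.65) for null against wild type and 0.08 (-0.37 to 0.53) for null against heterozygous, with adjusted p-values of 0.748, 0.912 and 0.825. Its second probe set held the same value of 4.80 on 5 of 7 arrays. Over the whole series, 253 of 22626 probe sets hold exactly the same value on 5 or more arrays.

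Fosl2 (chromosome 5, 32136472 to 32157840) lay at the edge of the filter. Its values were 5.04, 4.76 and 4.76 in null, 4.75 and 4.88 in heterozygous, and 4.68 and 4.53 in wild-type cells, with 1 array (null replicate 1) above the 30th percentile. Snai2 (chromosome 16, 14705852 to 14709395) was at 3.78 to 3.88 on all arrays, with the same value of 3.84 on 5 of them, and lay above the 30th percentile on none. Twist1 (chromosome 12, 33957671 to 33959831) was at 3.51, 3.00 and 5.03 in null, 3.58 and 3.37 in heterozygous, and 2.95 and 3.37 in wild-type cells. Null replicate 3 alone reached the 30th percentile. Snai2 was thus not detectable above the dim part of these arrays, and Twist1 was above it in 1 sample only.

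**Figure D3:**
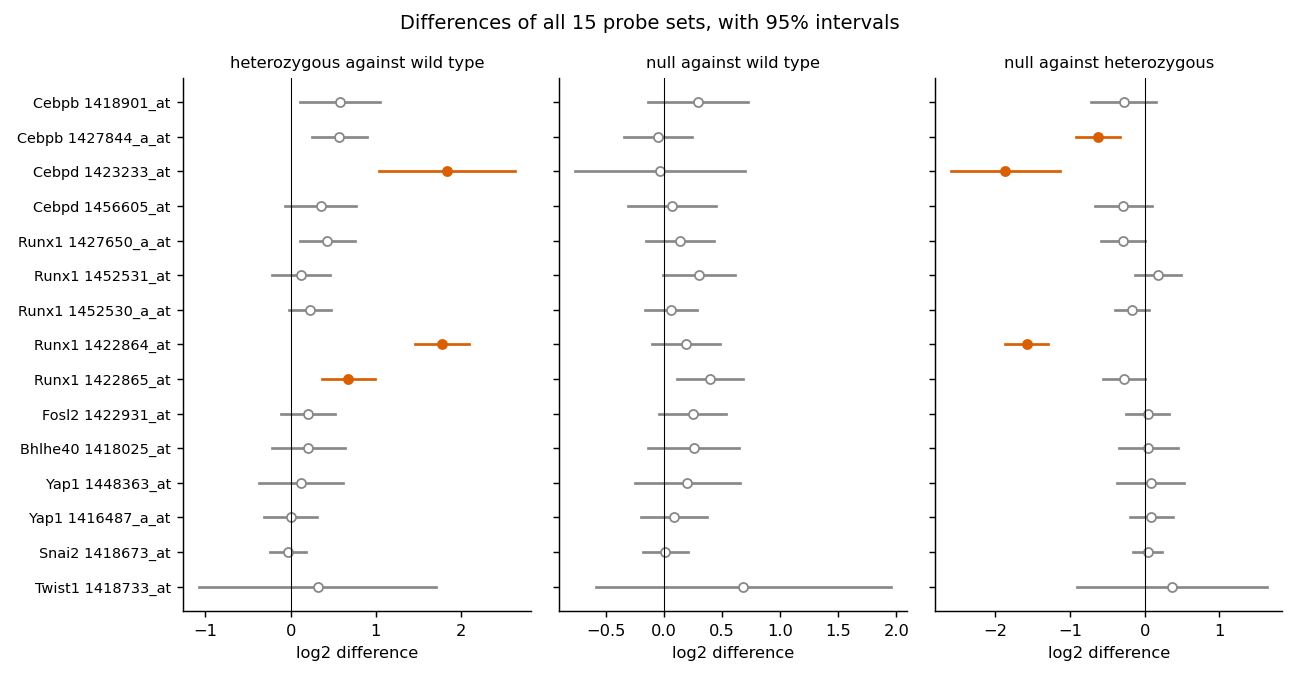
Log2 differences (horizontal axis) of the 15 probe sets, with 95% intervals from the fit of every probe set, are drawn for heterozygous against wild type, null against wild type and null against heterozygous; filled orange points have an adjusted p under 0.05. Cebpd 1423233_at and Runx1 1422864_at pass on both sides of the heterozygous group, Runx1 1422865_at (below the 30th percentile on every array) and Cebpb 1427844_a_at on one side each, and no probe set passes for null against wild type.

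Counted over the factors, heterozygous against wild type gave 1 of 5 tested genes past the threshold and higher (Cebpd), where 10.1% of all 9243 genes tested passed and 4.2% passed and were higher. At an unadjusted p under 0.05 there were 3 (Cebpb, Cebpd and Runx1). Both heterozygous arrays lay above both wild-type arrays for all 5, where the groups were apart, in either direction, for 61.3% of genes. The median difference was 0.43 over the 5, against -0.04 over all genes tested. Without a filter it was 0.26 over all 8 factors, against -0.01 over all genes. The count over all genes itself leaned on single arrays. It was 938, against 33 without wild type replicate 2, 165 without heterozygous replicate 1, 196 without wild type replicate 1 and 0 without the pair of arrays with Xist and Eif2s3y. Over probe sets, 3 of 15 passed, where 4.97% of all did, and 10 of 15 had both heterozygous arrays above both wild-type arrays, where 24.3% of all did. The 5 Runx1 probe sets share a target, so these 15 are not independent.

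Null against wild type gave 0 of 5 with limma, where 0% of all genes passed, and 0 of 5 had an unadjusted p under 0.05. The smallest adjusted p of any gene was 0.883, and 475 genes reached an unadjusted p under 0.05, against 462.2 expected from chance alone. Only Cebpb had groups that did not overlap, where 21.7% of genes did. The median was 0.20 over the 5, against -0.001 over all genes tested. Without a filter it was 0.23 over the 8 factors, against 0.02 over all genes.

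Null against heterozygous shares its heterozygous arrays with the first comparison. It gave 1 of 5 past the threshold (Cebpd, lower in null), where 8.96% of all genes passed and 3.96% passed and were lower. The groups were apart for 2 of 5 (Cebpd and Runx1), where 43.7% of genes were. Over probe sets 3 of 15 passed, where 3.65% of all did. The median difference was -0.28 over the 5 tested factors and 0.04 over all 8, against 0.04 over all genes.

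By the smallest root mean square difference between mean-centred profiles over the 7 arrays, the genes most like Cebpd were Col18a1, a basement membrane collagen (0.15), and Ms4a6d, a membrane protein of myeloid cells (0.22). Col18a1 read 5.62, 6.50 and 6.30 in null, 7.74 and 8.32 in heterozygous, and 6.50 and 5.60 in wild-type cells. Ms4a6d read 3.28, 3.88 and 3.49 in null, 5.02 and 5.38 in heterozygous, and 3.56 and 3.09 in wild-type cells. Its null and wild-type values lay below the 30th percentile (4.82 to 4.95 over the arrays). Ms4a6d was thus among the genes searched through the heterozygous arrays alone, and its likeness to Cebpd rests on dim values elsewhere. For Twist1 the nearest genes, Casp9 and Sncaip, were both at 0.27, and both were highest in null replicate 3 (7.40 and 6.50). That is the only array on which Twist1 lay above the 30th percentile (5.03). The choice by profile favours genes that are high there, so their peak adds no evidence.

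Relatives of the factors moved in part. The counts here and in the lists below stand beside shares over all 9243 genes tested. In heterozygous against wild type 10.1% passed, and 4.2% passed and were higher. In null against heterozygous 8.96% passed, and 3.96% passed and were lower. Of 5 C/EBP family genes tested, Cebpd alone rose in heterozygous against wild-type cells, and the median was 0.50 (0.26 and 0.77 on leaving out heterozygous replicates 2 and 1 in turn, and 0.29 when wild type replicate 2 was dropped). Ddit3, a stress-induced C/EBP partner, was at 7.52, 7.98 and 7.49 in null, 7.68 and 8.21 in heterozygous, and 7.66 and 7.22 in wild-type cells (0.50, adjusted p = 0.231). Of 10 AP-1 genes, 2 rose and 0 fell. Junb was at 6.34, 6.40 and 6.38 in null, 7.0 and 7.16 in heterozygous, and 6.19 and 5.95 in wild-type cells, a rise of 1.01 ± 0.12 (SE, adjusted p = 0.00864). Atf3, a stress factor that pairs with Jun proteins, was at 5.03, 5.06 and 5.01 in null, 6.39 and 6.0 in heterozygous, and 4.85 and 4.25 in wild-type cells, a rise of 1.65 ± 0.21 (adjusted p = 0.00962). In both genes the heterozygous arrays were above all others. Fosb (-1.06, adjusted p = 0.0524) and Jund (-0.85, adjusted p = 0.0914) had lower means in heterozygous cells and did not pass. The list median was 0.14.

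Of 5 RUNX family genes and partners tested, with Runx1 itself among them, 0 passed in either direction. Cbfb, which encodes the partner subunit, was at 10.76 to 11.05 in null, 10.93 and 10.98 in heterozygous, and 10.86 and 11.16 in wild-type cells, and differed by -0.06 between heterozygous and wild type. Runx1t1, a corepressor, was at -0.93 (adjusted p = 0.0591). Of 11 relatives of Bhlhe40 and clock factors tested, with Bhlhe40 itself among them, 0 passed for heterozygous against wild type. Their median was -0.47, and the heterozygous sum of the list (3967 to 4945, linear units) lay below those of null (6008 to 6714) and wild type (5905 to 6161). Bhlhe41 lay below the 30th percentile on every array and was not tested. Nr1d2, the nuclear receptor REV-ERBβ, was at 11.26 to 11.34 in null, 10.60 and 10.98 in heterozygous, and 11.31 and 11.26 in wild-type cells (-0.50, adjusted p = 0.0663).

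YAP1 has a paralog, Wwtr1 (TAZ), and binds DNA through TEAD proteins. Of 4 genes of this complex tested, with Yap1 itself among them, 0 passed, with Wwtr1 at -0.02 and Tead3 at 0.27. Tead1, Tead2 and Tead4 lay below the 30th percentile on every array. Of 10 Hippo kinases and scaffolds tested, only Lats2, a kinase that restrains YAP1, passed. It fell by 0.62 (adjusted p = 0.0335), and its other probe sets ranged from -0.65 to 0.12. Of 16 YAP targets tested, 1 rose and 1, Lats2 again, fell, with a list median of -0.09. The risen gene was Ccn2, a matricellular protein, at 5.08, 5.02 and 5.77 in null, 6.40 and 7.05 in heterozygous, and 5.30 and 4.83 in wild-type cells (1.66 ± 0.32, SE, adjusted p = 0.0264). Gadd45b, a stress gene, was at 0.97 (adjusted p = 0.0532).

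Of 15 factors of epithelial-mesenchymal transition, 7 were tested and 1 rose. Sox9, which also marks astrocytes and neural stem cells, was at 5.98, 5.91 and 5.82 in null, 6.71 and 6.98 in heterozygous, and 5.73 and 5.28 in wild-type cells (1.34 ± 0.17, SE, adjusted p = 0.00962), with another probe set at 1.30. Zeb1 was at 11.39 to 11.66 in null, 11.18 and 11.28 in heterozygous, and 11.77 and 11.46 in wild-type cells (-0.39, adjusted p = 0.132), and Zeb2 differed by 0.01. Snai1 was at 3.62 to 3.93 on all arrays, below the 30th percentile throughout, as was Snai2.

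Among 10 other regulators of the mesenchymal class tested, 3 rose and 2 fell in heterozygous against wild-type cells. Myc, a growth-promoting factor, was at 7.76, 7.80 and 7.77 in null, 9.61 and 9.26 in heterozygous, and 7.86 and 7.91 in wild-type cells (1.55 ± 0.13, SE, adjusted p = 0.00356). Bcl3, a coactivator of NF-kappaB, was at 4.90, 5.19 and 4.40 in null, 7.24 and 8.04 in heterozygous, and 5.51 and 4.50 in wild-type cells (2.63 ± 0.41, adjusted p = 0.0151). In both genes the heterozygous arrays were far above the others. Nfkb2, an NF-kappaB subunit, rose by 0.66 (adjusted p = 0.0272), with its other probe set at 0.04. Epas1, a hypoxia-inducible factor, was at 6.34, 6.23 and 6.27 in null, 5.27 and 5.40 in heterozygous, and 6.08 and 6.54 in wild-type cells, and fell by 0.98 (adjusted p = 0.0169). The other fallen gene was Hif1a (-0.40, adjusted p = 0.0499), named here after its value was seen. Stat3 differed by 0.42 (adjusted p = 0.156). Zbtb18, a repressor of mesenchymal genes in human glioma, was at 10.91, 10.99 and 10.97 in null, 10.63 and 10.37 in heterozygous, and 10.93 and 10.91 in wild-type cells. It was 0.46 higher in null than in heterozygous cells (adjusted p = 0.0456), and heterozygous against wild type was at -0.42 (adjusted p = 0.0656).

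Across these lists of relatives and regulators, null against wild type gave 0 calls. In null against heterozygous cells, a comparison that uses the same heterozygous arrays as the one above, Cebpd, Junb (-0.71), Atf3 (-1.16), Ccn2 (-1.43), Sox9 (-0.94), Myc (-1.66) and Bcl3 (-2.81) fell, and Epas1 (0.95), Zbtb18 and Dbp rose. Dbp, a clock-controlled factor, was higher by 0.95 and is named after its value was seen. No other gene of these lists passed in that comparison.

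Of 18 known targets of C/EBP factors on the array, 12 were tested, and 10 of these rose and 0 fell in heterozygous against wild-type cells. Over all 9243 genes tested, 4.2% passed and were higher. Cebpd is itself in this list, which was drawn up with earlier results of these samples known, so its direction is not independent evidence. Lcn2, Hp, Ptx3, Ccl2, Cd14 and Timp1, which are 6 of the 10, passed the filter through the heterozygous arrays alone, so their high values also brought them into the test. Serpina3n, an acute-phase protease inhibitor, was tested and did not pass (1.73, adjusted p = 0.135), nor did Il1rn (-0.03). The median over all 18, without a filter, was 1.44, against -0.01 over all genes without a filter. Mt2, a metallothionein of the acute-phase response, was at 9.24, 9.24 and 8.93 in null, 11.57 and 12.07 in heterozygous, and 9.20 and 8.92 in wild-type cells (2.76 ± 0.20, SE, adjusted p = 0.00216). Mt1, the neighbouring metallothionein, rose by 1.67 ± 0.15 (adjusted p = 0.00403), with its other probe set at 0.30. Timp1, an inhibitor of matrix metalloproteases, rose by 3.93 ± 0.20 (adjusted p = 0.000895), taken against a wild-type level below the 30th percentile. Ptx3, a soluble pattern receptor, was at 3.62, 3.48 and 3.38 in null, 5.87 and 6.61 in heterozygous, and 3.71 and 3.26 in wild-type cells, so its rise of 2.75 is also taken against a dim level. The summed level of the list was 3718 to 4569 in null, 11912 to 17328 in heterozygous and 3321 to 4250 in wild-type samples. In null against heterozygous cells 10 of 12 fell, and in null against wild type 0 of 12 passed. Without the pair of arrays with Xist and Eif2s3y 0 genes of the whole table passed, and the unfiltered median of the list was then 1.86 for heterozygous against wild type.

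Of 36 genes of the mesenchymal class on the array, 31 were tested, of which 19 rose, 0 fell and 12 did not pass in heterozygous against wild-type cells, 2 of the 31 (Timp1 and Emp1) having passed the filter through the heterozygous arrays alone. The median without a filter was 1.16 (1.02 without the pair of arrays with Xist and Eif2s3y). Anxa2, an annexin of the cell membrane, was at 6.43, 6.28 and 6.51 in null, 8.56 on both heterozygous and 5.91 and 5.72 on the wild-type arrays (2.74 ± 0.12, SE, adjusted p = 0.00078), with other probe sets at 0.04 and 1.05. Among those that did not pass, Fn1, fibronectin, was at 0.21 with another probe set at -1.0, and Col5a1, a fibrillar collagen, was at -0.43. Anxa1, an annexin known for its role in inflammation, rose by 1.99 and Lgals3, galectin-3, by 3.59. In null against heterozygous cells 18 of 31 fell, and in null against wild type 0 passed. The list was drawn up with earlier results of these samples known, so its direction is not independent evidence.

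**Figure D4:**
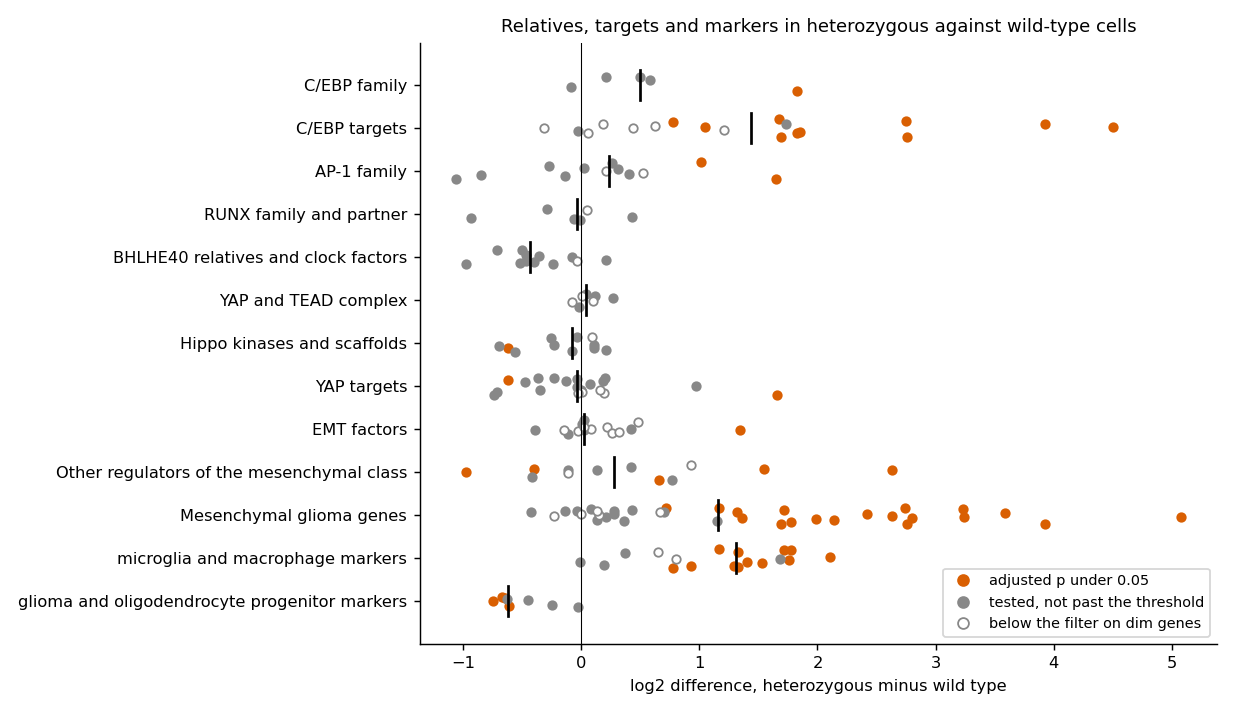
The log2 difference of heterozygous minus wild type (horizontal axis) is plotted for each gene of the lists named at the left; orange points have an adjusted p under 0.05, grey points do not, open points lay below the filter on dim genes, and a black tick marks the median over all genes of a list on the array. The C/EBP targets, mesenchymal genes and macrophage markers lie mostly to the right (medians 1.44, 1.16 and 1.31), the progenitor markers to the left (-0.62), and the Yap1 and Runx1 relatives around 0.

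Markers of other cells moved on the same arrays. Of 16 macrophage markers tested, 12 rose and 0 fell in heterozygous against wild-type cells, with a median over all 18 of 1.31 without a filter. Ptprc and Cd68, which are 2 of the 12, passed the filter through the heterozygous arrays alone. Ptprc, the leukocyte antigen CD45, was at 4.33, 4.58 and 4.53 in null, 5.88 and 5.62 in heterozygous, and 4.32 and 4.38 in wild-type cells (1.40 ± 0.14, SE, adjusted p = 0.00491), so its rise is taken against levels below the 30th percentile, and Cd53 rose by 1.72. Itgam lay below the 30th percentile on every array. Of 8 progenitor markers, 4 fell and 0 rose, Olig2 by 0.67 (adjusted p = 0.0251) and Pdgfra by 0.65 (adjusted p = 0.0368) among them. Of 6 astrocyte markers, 2 rose and 1 fell, with Gfap higher by 1.49 (adjusted p = 0.00864). The other risen one, Aldh1l1 (1.46), passed the filter through the heterozygous arrays alone, and its second probe set was at 0.15. The median over the 6 was 1.47 for heterozygous against wild type and -1.47 for null against heterozygous, where 3 fell and 1 rose. Gja1 (1.77, adjusted p = 0.0583) and Aqp4 (1.61, adjusted p = 0.0799) had higher means in heterozygous than in wild-type cells and did not pass. The astrocyte marker sums overlapped, at 4843 to 6518 in null, 5305 to 5672 in heterozygous and 5119 to 5311 in wild-type samples. S100b (-0.76) and Slc1a3 (-0.16), the brightest of these markers on the wild-type arrays, were not higher in heterozygous cells. Of 9 markers of pericytes, fibroblasts and meninges tested, Tagln (1.58), Col3a1 (2.13, with its other probe set at 0.05) and Col1a2 (1.36) rose and 0 fell. The median over all 10 on the array, without a filter, was 0.56. The marker sum was 2706 to 3097 in null, 2666 to 2733 in heterozygous and 2891 to 3203 in wild-type samples. Cspg4, which is also in the progenitor list, was the brightest of these genes and weighs most in this sum. It was at 10.39 and 10.92 in heterozygous and 11.37 and 11.21 in wild-type cells (-0.63, adjusted p = 0.0751), so the sum does not show how the other markers moved. The neuron marker sum was 1996 to 2260 in null, 1005 to 1275 in heterozygous and 2222 to 2357 in wild-type samples. It rests on Gad1 (-1.24, adjusted p = 0.0146) and Snap25 (-0.84, adjusted p = 0.0131), which fell in heterozygous against wild-type cells. Stmn2 differed by 0.03, and Rbfox3 and Syt1 lay below the 30th percentile on every array. Endothelial markers passed in 0 of 3, and their sums overlapped between the groups. Fewer cells of a type and less RNA per cell cannot be told apart in these samples. The part of macrophages, and of the other cells named here, in the rises of Cebpd, of Runx1 and of their targets was not tested.

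**Figure D5:**
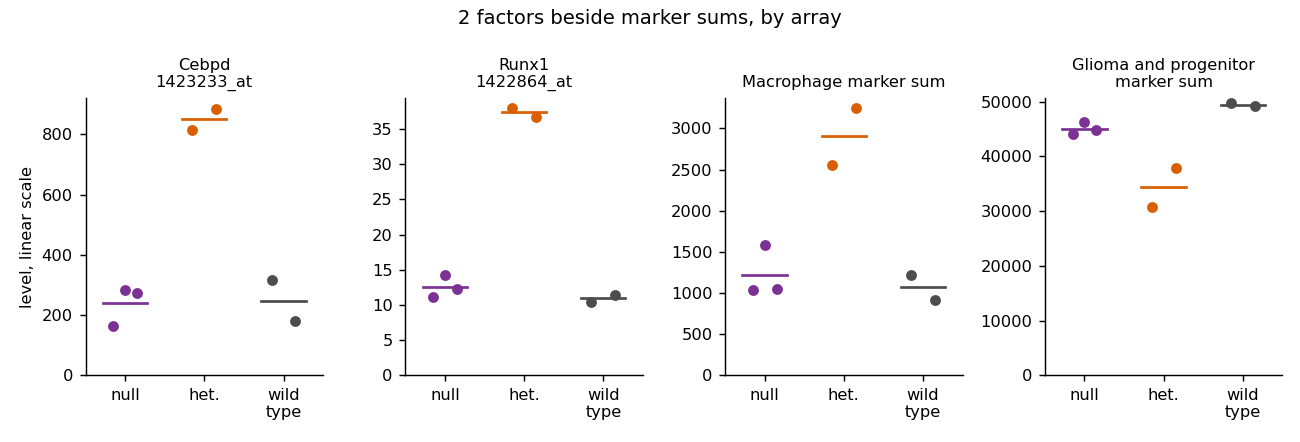
Levels on a linear scale (vertical axes, from 0) of Cebpd 1423233_at, Runx1 1422864_at, the sum of 18 macrophage markers and the sum of 8 progenitor markers are plotted by array for null, heterozygous (het.) and wild-type cells, with lines at the group means. Both heterozygous arrays are the highest in the first 3 panels and the lowest in the fourth, where they are at 30808 and 37860. Runx1 1422864_at is not the brightest Runx1 probe set but the one with the largest heterozygous minus wild-type difference (1.77, log2). The choice therefore favours the separation in that panel, where only the heterozygous arrays lie above the 30th percentile. The brightest Runx1 probe set differed by 0.43 and did not pass the threshold.

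Motifs were searched near the start sites, where so few promoters allow no comparison with the shares over all promoters. The RefSeq table held 6 promoters of 5 factors (Cebpb, Fosl2, Yap1 and Twist1 with 1 each, Runx1 with 2), each read over 300 bases, from 250 before to 50 after the start. The motifs below were searched on both strands, with N for any base. Over all 32851 promoters of that length, TTNNGCAA (C/EBP) was held by 10.8%, TGANTCA (AP-1) by 7.8%, TTCNNNGAA (STAT) by 8.3%, CATTCC (TEAD) by 14.7%, TGTGGT (RUNX) by 16.8%, CACGTG (an E-box bound by BHLHE40) by 7.2% and CAGGTG (an E-box bound by SNAI2) by 20.2%. The upstream Runx1 stretch printed above holds CAGGTG beginning 136 bases and CACGTG beginning 71 bases before the start. The 50 bases after that start hold the RUNX motif on the opposite strand, at 28 and 36 bases. The inner stretch holds the TEAD motif 55 bases before the start. The Yap1 promoter holds CACGTG at 163 and the TEAD motif at 141 bases before the start. No match overlapped another. The promoters of Cebpb, Fosl2 and Twist1 held none of these letters, which says nothing about binding elsewhere.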

How the data were processed

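RNA of sorted glioma cells was measured on 7 arrays, labelled from 75 ng of total RNA per the labels' protocols. The deposited table holds values on the log2 scale, made with RMA and Partek 6.6 per the submitters' processing notes. RMA gives all arrays 1 distribution, which hides any change common to all genes. Precision is limited by how few arrays there are. Scanner files were not used here.

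Of 22626 probe sets other than controls, 20380 named 1 gene, 691 several and 1555 none in the platform annotation. Comparison with RefSeq (GRCm38.p6) changed 0 symbols and left 29 of the single-gene probe sets without a match. Genes were read from their brightest probe set and tested where it lay above the 30th percentile on at least 2 arrays (9243 genes). With limma 3.58.1 (R 4.3.3), 1 model with a mean per genotype covered all 7 arrays; it was checked on simulated data. P-values are two-sided, adjusted by Benjamini-Hochberg over all genes tested, with a threshold of 0.05. The other probe sets of the factors were read from a second fit of all 22626. Promoters came from the RefSeq table of GRCm38.p6.

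The factors and gene lists were chosen with earlier results of these data known. The text names all factors, up to 4 genes of smallest p per list in heterozygous against wild type, Stat3, Wwtr1, Zbtb18, Snai1, Zeb1 and Zeb2, and the 2 genes most like each factor that spans over 1 on the log2 scale. Fn1, Col5a1, Serpina3n, Il1rn, Aqp4, Slc1a3, Rbfox3, Syt1, Bhlhe41 and the list genes named as tested through the heterozygous arrays alone were added after their values were seen. Alternatives covered the filter, the probe set per gene, moderation, the samples fitted, scaling, a 3' minus 5' covariate, a replicate block and leaving out arrays.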

Additional observations from a re-analysis of the deposited data

How the results depend on the processing

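Of 264 values (5 factors, 3 comparisons and up to 18 alternatives), 235 kept their direction and side of the threshold, 14 lost a call, 4 gained one and 11 changed sign. Most of the 235 were differences that had not passed in the main fit either. All 14 lost calls were of Cebpd, the only factor that had passed. Of these, 8 were in heterozygous against wild type and 6 in null against heterozygous. In heterozygous against wild type, 938 genes passed (97 without moderation, 172 with these groups alone, 372 with the 3' minus 5' covariate, 217 with the replicate block, 0 without heterozygous replicate 1 and null replicate 1, and 33 to 802 with single arrays left out). Of the factors 1 passed, against 3 when probe sets of a gene were averaged (Cebpb, Cebpd and Runx1), 0 without moderation, with these groups alone, with the covariate, with the replicate block and without both arrays, and 0 to 1 with single arrays left out. In null against wild type 0 genes passed, against 1 with the mean of probe sets, 1 without moderation and 0 to 1 with single arrays left out. In null against heterozygous 828 genes passed (2 without moderation, 355 with these groups alone, 471 with the covariate, 25 with the replicate block, 0 without both arrays, and 90 to 732 with single arrays left out). Of the factors 1 passed, against 2 with the mean of probe sets, 0 without moderation, with the replicate block and without both arrays, and 0 to 1 with single arrays left out. The cause of these moves was not tested, except that leaving out arrays leaves fewer samples.

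Signs changed only for differences that had not passed. For Cebpd in null against wild type (-0.03), the value was 0.018 with the mean of probe sets, 0.0078 with arrays centred on their medians, 0.23 without both arrays and -0.44 to 0.38 with single arrays left out. In null against heterozygous, Bhlhe40 (0.05) was at -0.065 with the replicate block, and with single arrays left out it ran from -0.065 to 0.20, Cebpb from -0.60 to 0.039 and Yap1 from -0.053 to 0.27. Same-numbered arrays deviated from their group means with correlations of 0.111 for heterozygous and wild type. The values were -0.179 and -0.414 for null and wild type, and 0.022 and -0.193 for null and heterozygous. The deviations of the heterozygous arrays mirror each other, and so do those of the wild-type arrays. These correlations therefore cannot decide whether the numbers pair the samples.

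List medians, recomputed after the data were seen with arrays left out, kept their sign in heterozygous against wild type for C/EBP targets (1.13 to 1.86), mesenchymal genes (1.01 to 1.16) and macrophage markers (1.02 to 1.48). Groups of 2 and 3 arrays limit all tests, an arm left with 1 array is assumed to vary like the others, and signals under the 30th percentile are too dim to rank.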
